A study of Mus musculus with 12 samples.

Results

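The 10 genes of MHC class I antigen presentation described here, out of 56941 genes in the count tables, were followed through bone-marrow-derived macrophages of WT and miR-210 KO mice before and after IL-4. They were chosen by symbol, from the function of their products and with earlier results of these data known. They are the heavy chains H2-K1, H2-D1 and H2-T23, the light chain B2m, the peptide transporter subunits Tap1 and Tap2, the loading factor Tapbp, the immunoproteasome subunits Psmb8 and Psmb9, and the transactivator Nlrc5. All 10 were found, each under 1 identifier, and all 10 passed the filter on low counts in every comparison. Monocytes of WT C57Bl/6J mice, and of MiR-210-KO mice on the same background bred from heterozygous parents, were isolated from the marrow with magnetic beads. They were grown for 7 days in medium conditioned by L929 cells, a fibroblast line that supplies M-CSF, to give M0 macrophages. M2 macrophages received 20 ng/mL IL-4 for a further 72 hours. According to the paper, cultures serving as controls for this step differed only in lacking IL-4. The day on which the M0 cells were lysed for sequencing is not stated in the paper. The KO allele was made by crossing miR-210 floxed animals to a Gata-1 Cre line, and whether the mice used still carried Cre is not given in the sources used here. In each of the 4 groups WT M0, KO M0, WT M2 and KO M2, 3 libraries were sequenced.

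MHC class I molecules display fragments of cytosolic proteins to CD8 T cells and NK cells. The proteasome cuts the proteins, and in cells exposed to interferon the immunoproteasome subunits replace its standard catalytic subunits. The TAP transporter carries the peptides into the endoplasmic reticulum, where tapasin, calreticulin and ERp57 help to load them onto a heavy chain paired with beta-2-microglobulin. NLRC5 acts at class I promoters with other factors and drives transcription of heavy chains, B2m, Tap1 and Psmb9. Interferon raises the whole pathway in macrophages, whereas IL-4 is best known for inducing the genes of the M2 state.

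The library totals lay between 7930525 and 10167695 counts. Mir210, the deleted gene, was counted 1 to 5 times per library in WT and not at all in the 6 libraries of KO. Retnla, an M2 marker, had no count in any M0 library and reached 431 CPM ± 42.4 (SD, n = 3) in WT M2 and 379 CPM ± 105 in KO M2, where CPM is the TMM-scaled CPM of a library. Arg1, another M2 marker, rose with IL-4 by 5.53 (SE 0.12) on the log2 scale in WT and 4.71 (SE 0.11) in KO, and Mrc1, the mannose receptor, by 0.62 (SE 0.10) and 0.89 (SE 0.088). The 7 macrophage markers summed to between 8658 and 9868 CPM in the M0 libraries and between 7298 and 8024 CPM in the M2 libraries. The 8 T and NK cell markers summed to at most 0.316 CPM, with 5 of them at 0 in every library, Cd3e and Ncr1 included, and the 6 B cell markers to at most 10.2 CPM, with Ms4a1 at 0. The neutrophil, fibroblast and erythroid markers stayed at or below 5.16, 2.49 and 4.64 CPM. The 8 dendritic cell markers summed to 1.02 to 1.67 CPM in M0 and 11.2 to 19.4 CPM in M2, mostly through Zbtb46, and their part in the results below was not tested. Since the batch named in the labels is the group itself, the 2 cannot be told apart. Nothing in the sources ties a library to a single animal, and p-values measure only the spread between these libraries.

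On GRCm39, 8 of the 10 genes lie on chromosome 17 in or near the MHC, in the order Tapbp (34134873 to 34148267), H2-K1 (34214987 to 34219321), Psmb9 (34400960 to 34406738), Tap1 (34405996 to 34416199), Psmb8 (34416690 to 34420428), Tap2 (34422501 to 34435829), H2-D1 (35481691 to 35486475) and H2-T23 (36340229 to 36345571). B2m lies on chromosome 2 (121977957 to 121983594) and Nlrc5 on chromosome 8 (95160984 to 95253900). Tap1 and Psmb9 are transcribed away from each other from canonical starts 363 bases apart, their annotated gene bodies overlap by 743 bases, and the strand-specific counting separates their reads. The heavy chains have relatives of similar sequence in the MHC. Of the 50-base stretches of the canonical transcript, 8.79% in H2-K1, 14.2% in H2-D1 and 30.4% in H2-T23 also occurred in a transcript of another gene, against 2.90% in Tapbp, 0.818% in Tap1, 0.637% in Tap2 and 0 in B2m, Psmb8, Psmb9 and Nlrc5. The shared stretches of H2-K1, H2-D1 and H2-T23 occurred in 26, 244 and 286 other genes. How the reads of such stretches were divided was not tested, and the values of the heavy chains are uncertain to that extent.

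The promoters are printed because most of these genes moved together. RefSeq (GRCm38.p6) gave a start for 8 of the 10 genes, all but Tap2 and Nlrc5, and the 250 bases before the first listed start were searched on both strands. The motifs, chosen after these windows had been read, were a kB-like motif (GGGANNNNCC), the core of the interferon-stimulated response element (TTTCNNTT), TGACG, which is the core of the cyclic AMP element and of the X2 box of MHC promoters, and CCAAT. The capitals mark these matches. A GAS motif (TTCNNNGAA) and a STAT6-type motif (TTCNNNNGAA) were also searched and are not marked.
H2-K1, chr17:34000348-34000597, minus strand: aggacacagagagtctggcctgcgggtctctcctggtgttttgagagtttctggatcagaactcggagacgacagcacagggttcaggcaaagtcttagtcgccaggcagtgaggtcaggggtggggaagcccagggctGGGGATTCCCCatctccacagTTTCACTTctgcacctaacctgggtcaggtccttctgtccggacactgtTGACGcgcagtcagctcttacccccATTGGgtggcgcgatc
H2-D1, chr17:35262844-35263093, plus strand: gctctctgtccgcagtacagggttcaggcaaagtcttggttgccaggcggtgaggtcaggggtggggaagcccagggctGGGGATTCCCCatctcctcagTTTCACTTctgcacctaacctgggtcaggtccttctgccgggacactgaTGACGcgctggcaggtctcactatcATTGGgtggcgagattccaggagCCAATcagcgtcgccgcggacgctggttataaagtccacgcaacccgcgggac
B2m, chr2:122147437-122147686, plus strand: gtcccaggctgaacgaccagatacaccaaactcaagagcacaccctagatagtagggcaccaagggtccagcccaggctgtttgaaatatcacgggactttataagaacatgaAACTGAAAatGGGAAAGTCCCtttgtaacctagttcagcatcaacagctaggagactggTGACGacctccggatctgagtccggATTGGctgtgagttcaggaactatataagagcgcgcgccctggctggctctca
Tap1, chr17:34187306-34187555, plus strand: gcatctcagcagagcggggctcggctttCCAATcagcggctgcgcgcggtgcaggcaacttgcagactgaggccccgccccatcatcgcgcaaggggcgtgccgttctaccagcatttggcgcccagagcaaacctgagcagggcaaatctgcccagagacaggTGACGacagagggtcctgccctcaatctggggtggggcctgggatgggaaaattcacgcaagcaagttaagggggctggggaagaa
Tapbp, chr17:33919228-33919477, plus strand: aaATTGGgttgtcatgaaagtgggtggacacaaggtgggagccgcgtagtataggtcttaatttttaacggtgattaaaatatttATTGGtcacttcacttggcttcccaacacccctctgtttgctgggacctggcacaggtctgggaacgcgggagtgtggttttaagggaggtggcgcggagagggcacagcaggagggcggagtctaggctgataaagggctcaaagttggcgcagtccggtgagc
The class I heavy chains H2-K1 and H2-D1 and the light chain B2m held all 4 marked motifs. The kB-like motif was in these 3 of the 8 windows, against 17.3% of 27025 promoters, and in all 3 the matches on both strands overlapped each other. The interferon core was in 4 of 8, the same 3 and H2-T23, against 21.6% of promoters. TGACG was in 5 of 8 (H2-K1, H2-D1, B2m, Tap1 and Psmb9) against 17.9%, and CCAAT in 7 of 8, all but Psmb8, against 34.5%. Of the unmarked motifs, GAS was in 1 of 8 (Psmb8) against 7.18%, and the STAT6-type motif in 0 of 8 against 5.86%. Tapbp held only CCAAT, and Psmb8, which fell with IL-4 in both genotypes, held none of the 4 marked motifs. The windows of H2-T23, Psmb8 and Psmb9 are not printed. Both windows of Psmb9 and Tap1 cover the region between these genes, and their TGACG match and the CCAAT match printed for Tap1 are the same bases in each, so these counts hold 1 site under both genes. The windows of H2-K1 and H2-D1 share long runs of bases around their kB-like and interferon core matches, so their matches in these counts are not independent.

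In WT M0 the levels per kilobase of exon spanned from H2-D1, at 1357 CPM per kb, to Tap2, at 7.87 CPM per kb. Between them came B2m at 975, H2-K1 at 722, H2-T23 at 216, Tapbp at 147, Psmb8 at 44.1, Tap1 at 27.96, Nlrc5 at 21.9 and Psmb9 at 17.6 CPM per kb. Tap1 and Nlrc5 were the only neighbours in this order whose libraries overlapped. All 10 genes had the same order in KO M0, where no neighbours overlapped. In WT M2 Tapbp, at 153 CPM per kb, stood level with H2-T23, at 148, with overlapping libraries, and Tap1 (9.74), Psmb9 (9.55) and Nlrc5 (9.25) could not be separated. With canonical transcript length in place of the union of exons, a choice added after the data were seen, Psmb9 ranked above Nlrc5 in M0 as well as in M2 and the first 3 places did not change. The 10 genes together took 1.05% ± 0.139 of all counts in WT M0, 0.992% ± 0.0855 in KO M0, 0.746% ± 0.0124 in WT M2 and 0.714% ± 0.0651 in KO M2 (SD, n = 3).

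**Figure D1:**
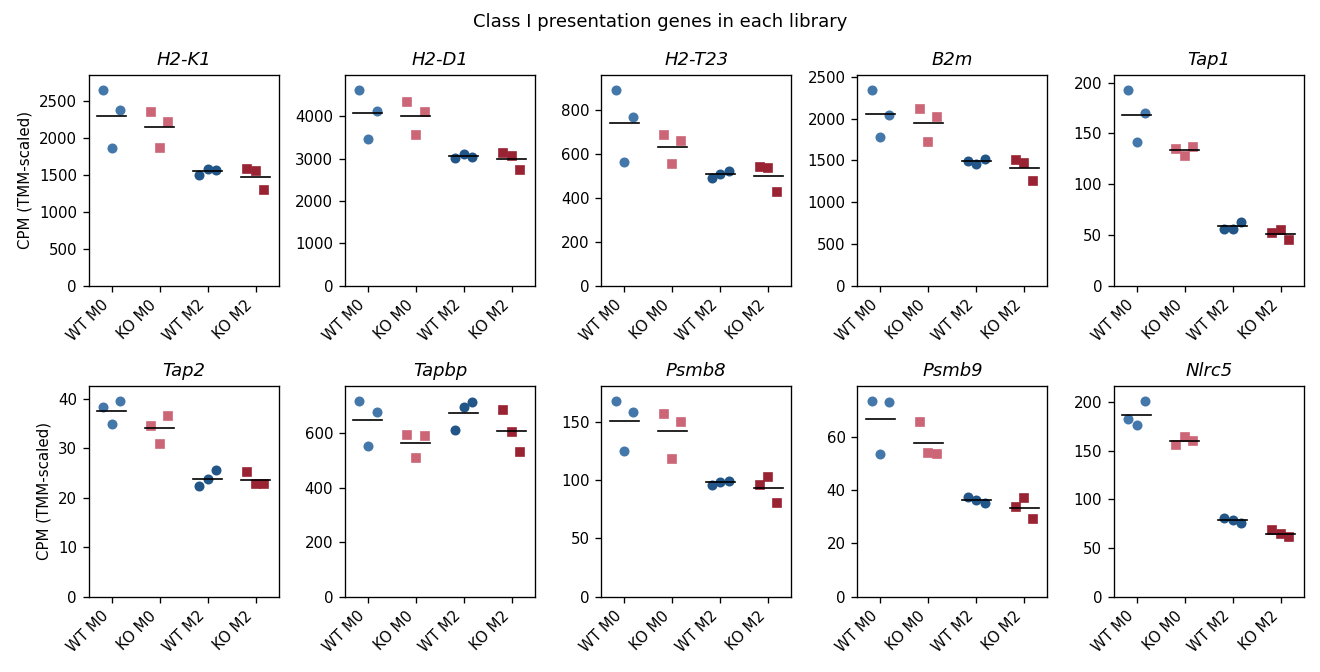
Level of each class I presentation gene in CPM, scaled by TMM, in the 12 libraries, with a point per library (circles WT, squares KO) and the mean of 3 as a line. The M2 libraries lie below all M0 libraries of the same genotype for every gene but Tapbp.

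IL-4 was followed by lower RNA of 9 of the 10 genes in both genotypes, and the exception was Tapbp. In WT the fall was deepest in Tap1 and Nlrc5, to 0.35 and 0.42 of the M0 level, and shallowest in H2-D1, to 0.75. In KO it was again deepest in Tap1 and Nlrc5, to 0.38 and 0.41, and shallowest in H2-T23, to 0.79. A call needed an adjusted p under 0.05 and a change of over 1.2 times in either direction and, between M2 and M0, also a protein-coding biotype and an average normalized count over 10. Of all genes that could be called, 21.8% were lower and 23.6% higher in WT M2 than in WT M0, and 18.1% lower and 18.5% higher in KO M2 than in KO M0. The M2 and M0 libraries of the 9 genes did not overlap in either genotype, while 28.7% of genes in WT and 22.7% in KO were lower without overlap. The median log2 change of the 10 genes was -0.58 in WT and -0.53 in KO, where the median of all genes tested was -0.0012 and -0.0078. The sum of the macrophage markers was also lower in M2, as given above, but the markers did not move together. Most of the sum was Lyz2, at 5212 of 9069 CPM on average in WT M0. Of the 7 markers, 3 were called lower and 1 (Itgam) higher in WT, and 4 lower and 0 higher in KO. Cd68 and Csf1r were not called in either genotype. The part of these markers in the fall of the class I genes was not tested. In bulk RNA, fewer cells that express a gene and less RNA per cell cannot be told apart. DESeq2, other normalizations and other filters on low counts called the same number, 9, in each genotype.

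H2-K1, a classical heavy chain, had 2648, 1868 and 2387 CPM in the WT M0 libraries 1, 2 and 3, 1508, 1590 and 1570 in WT M2, 2353, 1874 and 2224 in KO M0 against 1585, 1562 and 1295 in KO M2. Every M2 library was below every M0 library, though library 2 of WT M0 was nearer to M2 than the others were. The log2 change was -0.56 (SE 0.10, adjusted p = 0.000523) in WT and -0.54 (SE 0.10, adjusted p = 0.00113) in KO, by the quasi-likelihood test of edgeR with Benjamini-Hochberg adjustment. H2-D1, the second classical heavy chain, had 4604, 3453 and 4125 CPM in WT M0 against 3005, 3108 and 3041 in WT M2, with 4330, 3558 and 4090 in KO M0 against 3139, 3068 and 2741 in KO M2. Its M2 libraries again lay below all M0 libraries. It had the smallest called change in WT, -0.41 (SE 0.092), and -0.42 (SE 0.089) in KO. H2-T23, the non-classical heavy chain Qa-1 that NK cells read, had 889, 564 and 770 CPM in WT M0 against 490, 509 and 524 in WT M2, a log2 change of -0.54 (SE 0.12). In KO its 685, 556 and 658 CPM in M0 and 541, 534 and 425 in M2 came closest to overlap, with a log2 change of -0.34 (SE 0.11, adjusted p = 0.0256 in edgeR's quasi-likelihood test). Of the calls with IL-4 this was the 1 that depended on a library. It was lost, at an adjusted p of 0.0671, 0.0675 and 0.0799 in edgeR, without library 1 of KO M0, library 3 of KO M0 and library 3 of KO M2, each left out alone.

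B2m, the light chain shared by all these heavy chains, had 2337, 1776 and 2046 CPM in WT M0 against 1491, 1453 and 1523 in WT M2, and 2114, 1726 and 2017 in KO M0 against 1501, 1475 and 1249 in KO M2. Its log2 change was -0.46 (SE 0.088) in WT and -0.47 (SE 0.096) in KO, between those of H2-D1 and H2-K1. Again no M2 library reached an M0 library. The ratio of H2-D1 to B2m per kb was 1.39 ± 0.0255 in WT M0, between 1.43 and 1.45 in the libraries of KO M0, 1.443 ± 0.0542 in WT M2 and 1.49 ± 0.0442 in KO M2 (SD, n = 3). The ratio of H2-K1 to B2m was 0.739 ± 0.0388, 0.728 ± 0.00924, 0.691 ± 0.0285 and 0.695 ± 0.00805 in the same order. With IL-4 both ratios overlapped in WT, and in KO the first was higher and the second lower without overlap, by 0.05 and -0.07 on the log2 scale.

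Tap1 and Tap2, the paired subunits of the peptide transporter, fell by unequal amounts. Tap1 had 192, 142 and 170 CPM in WT M0 against 56.3, 56.2 and 63.0 in WT M2, a log2 change of -1.51 (SE 0.10, adjusted p = 3.89e-08 in edgeR's quasi-likelihood test). The M2 libraries of Tap1 were far below the M0 libraries. In KO it had 135, 128 and 137 CPM in M0 and 51.9, 54.8 and 45.5 in M2, a change of -1.39 (SE 0.088). Tap2 had 38.3, 34.8 and 39.5 CPM in WT M0 against 22.4, 23.7 and 25.5 in WT M2, with 34.5, 30.9 and 36.6 in KO M0 against 25.2, 22.8 and 22.8 in KO M2, a change of -0.65 (SE 0.089) in WT and -0.53 (SE 0.10) in KO. The ratio of Tap1 to Tap2 per kb went from 3.54 ± 0.394 in WT M0 to 1.95 ± 0.0597 in WT M2, and from 3.12 ± 0.155 in KO M0 to 1.71 ± 0.175 in KO M2. Neither pair of groups overlapped in this ratio. Nlrc5, the class I transactivator, had 182, 176 and 201 CPM in WT M0 against 80.7, 79.1 and 75.9 in WT M2, and 155, 164 and 160 in KO M0 against 68.1, 64.3 and 61.6 in KO M2. Its log2 change was -1.24 (SE 0.069, adjusted p = 6.96e-09) in WT and -1.30 (SE 0.077, adjusted p = 4.27e-08) in KO by edgeR's test, with the smallest p-values of the 10 genes in both. Tap1 and Nlrc5 were the 2 members past a |log2 fold change| of 1.

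**Figure D2:**
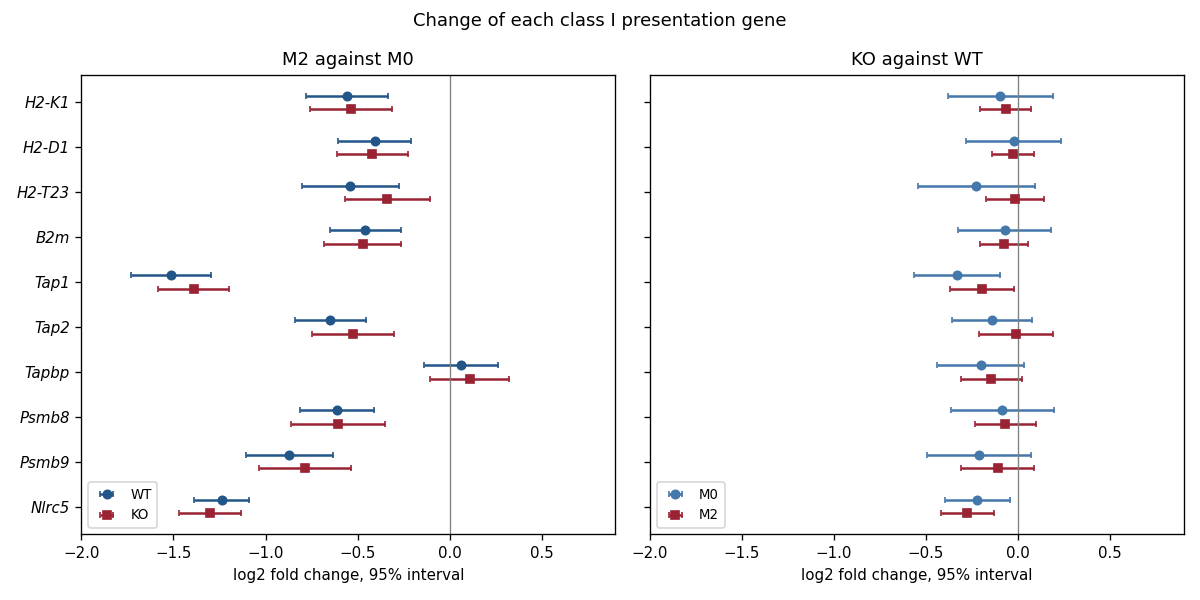
Log2 fold change of each gene with its 95% interval from edgeR, for M2 against M0 (left; circles WT, squares KO) and KO against WT (right; circles M0, squares M2). On the left only Tapbp crosses 0, and on the right only Tap1 and Nlrc5 stay clear of it, with no adjusted p under 0.05.

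The immunoproteasome has 3 catalytic subunits, and they did not move as a block. Psmb8, which takes the place of Psmb5, had 168, 125 and 159 CPM in WT M0 against 95.8, 98.8 and 99.6 in WT M2, with 157, 118 and 150 in KO M0 against 96.2, 102 and 80.5 in KO M2. Its log2 change was -0.61 (SE 0.093) in WT and -0.61 (SE 0.12) in KO. Psmb9, which takes the place of Psmb6, had 73.4, 53.7 and 73.2 CPM in WT M0 against 37.5, 36.2 and 35.2 in WT M2, and 65.6, 53.9 and 53.7 in KO M0 against 33.8, 37.2 and 29.1 in KO M2, a change of -0.87 (SE 0.11) and -0.78 (SE 0.11). Psmb10, the third of them and not one of the 10 genes, rose instead, from 35.1 CPM ± 4.84 to 59.5 ± 1.90 in WT and from 31.7 ± 3.95 to 59.1 ± 3.61 in KO (SD, n = 3), a log2 change of 0.77 (SE 0.095) and 0.90 (SE 0.11). Psmb5, a standard subunit, was called higher in WT (0.51, SE 0.083) and was at 0.16 (SE 0.12) in KO, and Psmb6, another, was called higher in KO (0.44, SE 0.10) and was at 0.21 (SE 0.10) in WT. Neither difference between genotypes passed the interaction test of edgeR, with an adjusted p of 0.532 for Psmb5 and 0.661 for Psmb6.

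The ratios between each immunoproteasome subunit and the one it replaces, per kb and within a library, need no scaling between libraries. Psmb8 over Psmb5 was 0.822 ± 0.0368 in WT M0 and 0.379 ± 0.0115 in WT M2, and 0.652 ± 0.0335 in KO M0 and 0.384 ± 0.0191 in KO M2. Psmb9 over Psmb6 went from 1.04 ± 0.199 to 0.495 ± 0.0785 in WT and from 1.05 ± 0.230 to 0.441 ± 0.0366 in KO. Psmb10 over Psmb7 went the other way, from 3.65 ± 0.519 to 5.75 ± 0.0696 in WT and from 3.10 ± 0.206 to 5.92 ± 0.434 in KO. M2 and M0 did not overlap in any of these. Between genotypes, the M0 libraries did not overlap for Psmb8 over Psmb5, with a log2 difference of -0.33 in KO, whereas the M2 libraries overlapped. H2-D1 over B2m was the other ratio without overlap between genotypes, higher in KO M0 by 0.05. With 3 libraries against 3 the two-sided exact permutation test cannot go below p = 0.1, which each of these non-overlapping ratios reached, and over the 24 comparisons of 6 ratios that is an adjusted p of 0.2. The ratios were chosen after the levels had been seen.

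**Figure D3:**
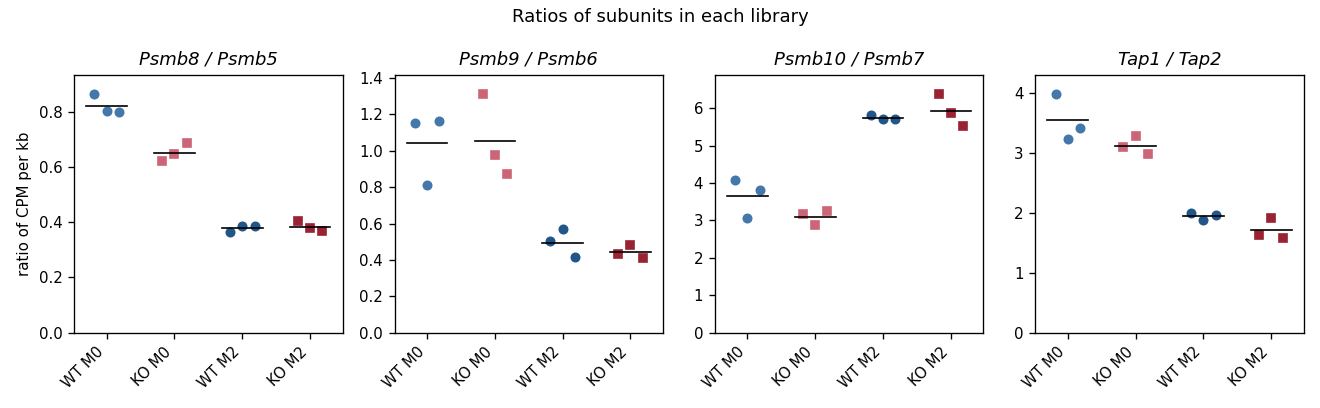
Ratio of CPM per kb of exon between pairs of subunits in each library, with the mean of 3 as a line. Psmb8 over Psmb5, Psmb9 over Psmb6 and Tap1 over Tap2 are lower in M2, and Psmb10 over Psmb7 is higher, in both genotypes.

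Tapbp, which encodes tapasin, had 717, 551 and 679 CPM in WT M0 against 612, 697 and 715 in WT M2, and 594, 509 and 588 in KO M0 against 686, 605 and 532 in KO M2. The groups overlapped, and the log2 change was 0.06 (95% interval -0.14 to 0.26) in WT and 0.11 (95% interval -0.11 to 0.32) in KO. In 15 other genes of peptide loading and trimming, 4 were called higher (Calr, Pdia3, Lap3 and Sec61a1) and 1 lower (Lnpep) in WT, and 2 higher (Calr and Lap3) and 1 lower (Lnpep) in KO, with a median log2 change of 0.097 and 0.0040. For all genes that could be called, the shares were 23.6% higher and 21.8% lower in WT, and 18.5% and 18.1% in KO. Calreticulin (Calr), a chaperone of the loading complex, rose by 1.09 (SE 0.074) in WT and 0.80 (SE 0.11) in KO. Lnpep, an aminopeptidase that trims peptides, fell by 0.51 (SE 0.064) and by 0.40 (SE 0.086). Sec61a1, a subunit of the translocation channel, was at 0.28 (SE 0.060) in WT and 0.18 (SE 0.075) in KO, and Lap3, a leucine aminopeptidase, at 0.42 (SE 0.099) and 0.48 (SE 0.11). ERp57 (Pdia3) was at 0.30 (SE 0.066) in WT, past the limit, and at 0.24 (SE 0.075) in KO, short of it.

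The other heavy chains of the family were mostly lower in M2. Of 19 listed, 12 passed the filter, and 8 of these were called lower and 3 higher in each genotype. Their median log2 change was -1.20 in WT and -1.07 in KO. Among all genes that could be called, 21.8% were lower and 23.6% higher in WT, and 18.1% and 18.5% in KO. The non-classical H2-M3, which presents formylated peptides, was at -1.18 (SE 0.082) in WT and -1.09 (SE 0.087) in KO, and H2-Q4 at -1.63 (SE 0.12) and -1.69 (SE 0.11). H2-Q6 and H2-Q7 showed the lowest values, -3.01 and -2.91 in WT and -3.01 and -2.93 in KO, and as close copies of each other they can share reads. H2-T24 was at -1.45 (SE 0.11) in WT and -1.30 (SE 0.11) in KO. The 3 that rose were H2-M2, Cd1d1, which presents lipids, and Hfe, a regulator of iron uptake, and Hfe alone was abundant, at 145 CPM ± 3.996 in WT M0 and 275 ± 28.7 in WT M2. Psme1, a subunit of the proteasome activator PA28, was called lower in WT (-0.32, SE 0.11, with overlapping libraries; -0.15, SE 0.10 in KO), and Psmb4, a standard subunit, higher in WT (0.29, SE 0.10, against 0.12, SE 0.11 in KO). Neither difference between genotypes passed the interaction test in edgeR. Of the 4 immunoproteasome partners and 7 standard beta subunits these and the genes above were the only calls.

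**Figure D4:**
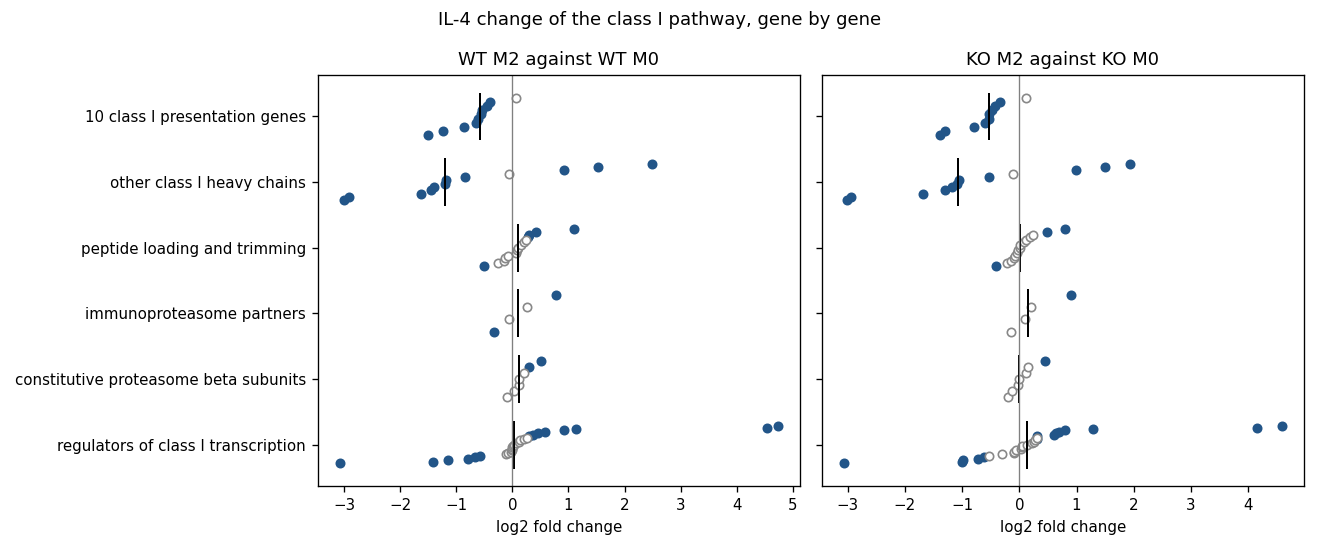
Log2 fold change of M2 against M0 in WT (left) and KO (right) for the 10 genes and the lists of the pathway, with a point per gene (filled where called) and the median as a black line. The 10 genes and the other heavy chains have their medians below -0.5, and the other lists have medians between -0.0084 and 0.15.

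Among 27 regulators of class I transcription, 8 were called higher and 6 lower in WT, and 9 higher and 5 lower in KO. The shares of all genes that could be called were 23.6% higher and 21.8% lower in WT, and 18.5% and 18.1% in KO. Irf7, an interferon-induced factor, went from 476 CPM ± 99.1 in WT M0 to 55.9 ± 3.63 in WT M2 and from 386 ± 48.8 to 45.8 ± 13.55 in KO, a log2 change of -3.08 (SE 0.13) and -3.07 (SE 0.18). Stat2, Irf8 and Irf9, named after their values were seen, were also called lower in both genotypes, with log2 changes between -0.58 and -1.16. Irf2, Nfkb1, Ifngr1, Ifngr2 and Ifnar1, named in the same way, were called higher in both, with log2 changes between 0.30 and 0.93. Ciita, also named in this way, was called higher in both, at 4.73 and 4.59, but from near the floor. Its means were 0.21 CPM in WT M0 and 0.14 in KO M0, against 6.14 in WT M2 and 3.57 in KO M2. In the comparison of KO M0 with WT M0 it did not pass the filter. Socs1, a feedback inhibitor of JAK kinases, rose from 5.85 CPM ± 1.35 to 136 ± 10.5 in WT, a log2 change of 4.54 (SE 0.12), and by 4.15 (SE 0.12) in KO. Jak2, a kinase of the interferon gamma receptor and other receptors, rose by 1.29 (SE 0.077) in KO and 1.13 (SE 0.074) in WT. Irf1, a direct activator of class I genes, was at -0.03 (SE 0.11) in WT and was called higher in KO (0.30, SE 0.099, with overlapping libraries), and the interaction did not pass (adjusted p = 0.578 in edgeR).

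Between genotypes, no member was called in either state. In M0, 0 of 10 passed in edgeR, where 0.461% of all genes were called, and 2 had an unadjusted p under 0.05, where 10.0% of all genes did. In M2, 0 of 10 passed where 0.980% of all genes did, and 2 had an unadjusted p under 0.05, where 10.7% did. DESeq2 also called 0 of 10 in each state, where it called 1.01% of all genes in M0 and 0.665% in M2. It gave an unadjusted p under 0.05 in 2 members in M0, against 5.48% of all genes, and in 1 member in M2, against 4.54%. All 10 estimates were below 0 in both states, with a median of -0.17 in M0 and -0.07 in M2 against 0.00050 and 0.0020 over all genes, but the members deviate together between libraries, as described further on, and are not 10 separate measurements. The comparisons of genotypes share their libraries with those of IL-4.

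The 2 members with the lowest unadjusted p were Tap1 and Nlrc5 in both states, and in both the KO libraries lay below all WT libraries. Of all genes, 7.28% in M0 and 8.53% in M2 were lower in KO without overlap. The log2 difference of Nlrc5 between KO and WT was -0.22 in M0 (95% interval -0.40 to -0.04, adjusted p = 0.358 by edgeR) and -0.28 in M2 (95% interval -0.42 to -0.13, adjusted p = 0.0643). The M2 difference passed, at adjusted p = 0.0307 in edgeR, when no filter was set on low counts. That of Tap1 was -0.33 in M0 (95% interval -0.56 to -0.10, adjusted p = 0.266 by edgeR) and -0.20 in M2 (95% interval -0.37 to -0.02, adjusted p = 0.386). Its M0 difference passed, at adjusted p = 0.033 in edgeR, without library 2 of WT M0, the lowest of its group. For H2-K1, H2-D1 and B2m the 95% intervals of the M2 difference lay between -0.21 and 0.08, and those of the M0 difference between -0.38 and 0.23. Of the regulators, edgeR called 0 of 26 in M0 and 0 of 27 in M2, with an unadjusted p under 0.05 in 5 and 4, and DESeq2 called 2 of 27 in M0, where it called 1.01% of all genes, and 0 of 27 in M2, where it called 0.665%. In M0 7 regulators lay lower in KO without overlap. Stat2, which DESeq2 called and which was named after its values were seen, was among them, at 283 CPM ± 29.1 in WT M0 and 218 ± 0.248 in KO M0 (SD, n = 3), with an adjusted p of 0.111 by edgeR's quasi-likelihood test. Over the 5 lists of the pathway together, regulators included, edgeR called 0 of 64 genes in M0 and 0 of 65 in M2, with an unadjusted p under 0.05 in 8 and 6, and DESeq2 called 2 of 67 in M0 and 0 of 66 in M2.

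The 7 bases at the seed of miR-210-3p (bases 2 to 8, in capitals) are printed because a match in a 3′ UTR is how a miRNA would meet its target directly.
miR-210-3p: cUGUGCGUgugacagcggcuga
The complement of this seed was in the canonical 3′ UTR of 0 of the 10 genes, whose 3′ UTRs run from 191 to 1200 bases, and in 3.37% of the 21612 3′ UTRs searched.

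The change with IL-4 did not differ detectably between genotypes. The 2 polarization comparisons share no library with each other, and the interaction of genotype and polarization was tested over the 12 libraries. By edgeR, 0 of 14825 genes (0%) and 0 of 10 members passed at an adjusted p under 0.05, and 8.95% of genes and 0 members had an unadjusted p under 0.05. DESeq2 called 91 genes (0.408%) and 0 members, with 4.78% of genes and 0 members at an unadjusted p under 0.05. The log2 differences of the members ran from -0.06 in Nlrc5 (95% interval -0.27 to 0.15) to 0.21 in H2-T23 (95% interval -0.19 to 0.60), a positive value meaning a shallower fall in KO.

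Within groups the members rose and fell together from library to library. In library 2 of WT M0 the 10 genes were on average at -0.23 from their group mean on the log2 scale, in library 2 of KO M0 at -0.14 and in library 3 of KO M2 at -0.15, while the median of all genes deviated by at most 0.0075 in any library. The 3 libraries of WT M2 ran from -0.03 to 0.03. Over the 12 libraries, the 45 pairs of members had a median Pearson r of 0.84 in these deviations, a description over libraries of 4 groups that share their scaling. Nlrc5 stood apart, with r of 0.20 to 0.43 to the other 9, whose 36 pairs ran from 0.35 to 0.99. It was also the longest transcript, at 7578 bases, where the other 9 ran from 1086 to 3976.

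Transcript length moved with these libraries. Among 5996 genes with an average log2 CPM over 5, the genes with the shortest transcripts (the lowest of 5 equal groups, up to 1377 bases) differed from those with the longest (from 5049 bases) by -0.17 in library 2 of WT M0, -0.22 in library 2 of KO M0 and -0.16 in library 3 of KO M2. The other 9 libraries ran from -0.04 to 0.19 in this difference. Its Pearson r with the mean deviation of the members was 0.87 over the 12 libraries. Taking out each library's smooth trend on transcript length and GC content left the members at -0.20, -0.11 and -0.12 in these 3 libraries, and the median r between members at 0.76. The calls in the 5 comparisons were as many with this trend removed, 9 and 9 with IL-4 and 0 in the others, in an alternative chosen after the data were seen. The KO change with IL-4 also gave 9 calls without library 2 of KO M0 and library 3 of KO M2.

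**Figure D5:**
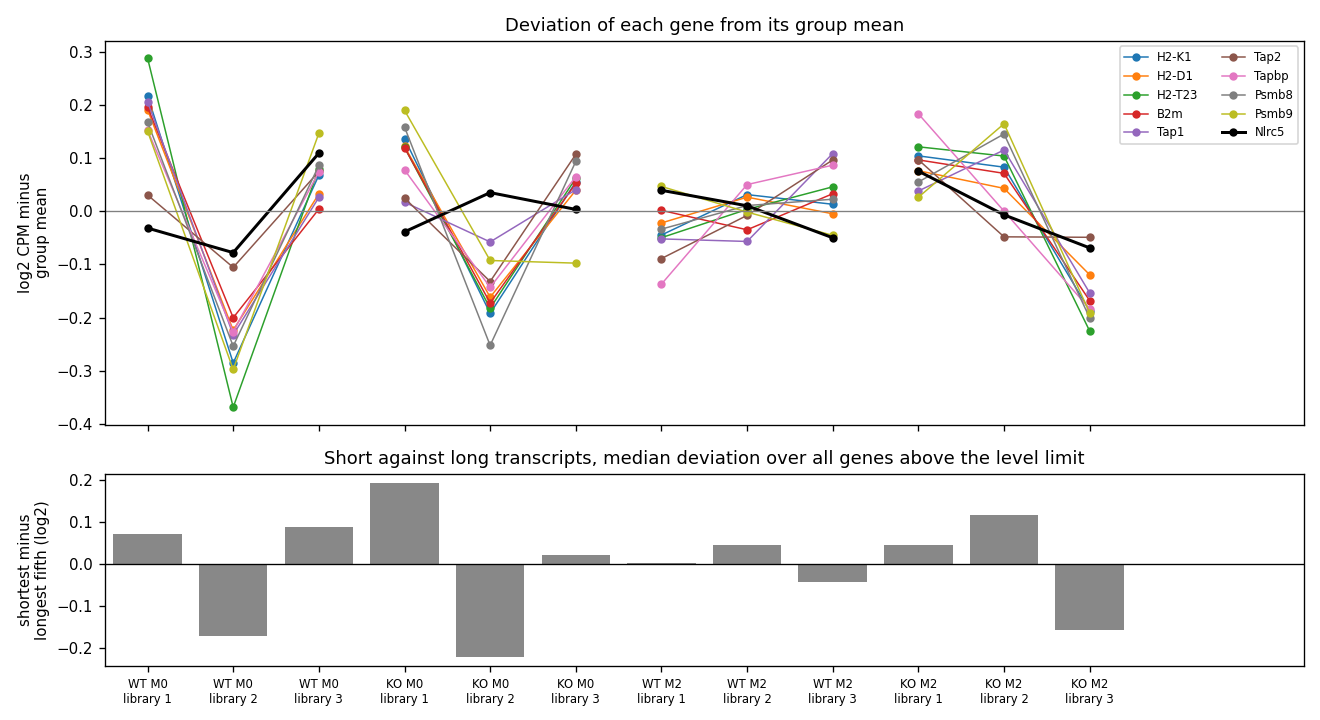
Top, deviation of each gene's log2 CPM from its group mean in each library, with lines joining the 3 libraries of a group and Nlrc5 in black; bottom, median deviation of the genes with the shortest transcripts minus that of the genes with the longest. Library 2 of WT M0, library 2 of KO M0 and library 3 of KO M2 are low in both.

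Of the 27 regulators, Irf1 followed the members most closely within groups, with r = 0.96 to their mean deviation over the 12 libraries, ahead of Irf7 (0.91), Irf9 (0.91) and Ifnar2 (0.90), a chain of the interferon receptor. Stat2 was at 0.77. Other regulators ran against the members, the lowest being Nfya (-0.80), Nlrc3 (-0.77) and Creb1 (-0.72). The part of the transcript length trend in these values was not tested. Irf1 deviated by -0.34, -0.10 and -0.21 in library 2 of WT M0, library 2 of KO M0 and library 3 of KO M2. From M0 to M2 it was not called lower, as given above.

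Over all 12 libraries and 14824 other genes, the patterns most like those of the members, by Pearson r of log2 CPM, were in part each other's. H2-K1 was nearest to Slfn2, a Schlafen gene (r = 0.995), H2-D1 and B2m, and H2-D1 to H2-K1, Itm2b and B2m. B2m was nearest to H2-K1, Psmb8 and H2-D1, and Psmb8 to H2-K1, Slfn2 and 4930430E12Rik. Tap1 was nearest to Fbxw17, Trim30d and Trim30a (r = 0.997 each), Tap2 to Axl, Znfx1 and Gm45418 (0.986 to 0.989), and Psmb9 to Cd5l, H2-T22 and Gm12250 (0.986 to 0.987). H2-T23 was nearest to Cept1 (0.981), S1pr2 and Psme1, and Nlrc5 to Slfn1 (0.992), Mir223hg and Luzp1. Tapbp had no gene as close, with Zfp263 (0.901), Ccl8 and Irf5 at the top. These values mostly carry the M0 to M2 step and come from 4 groups of libraries, so they describe shared pattern only.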

How the data were processed

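RNA of 12 macrophage cultures was measured, 3 in each of 4 groups. The counts were made by the authors, who trimmed reads (Trimmomatic), removed duplicates (Picard), aligned to GRCm39 (STAR) and counted per gene and strand (featureCounts), and were deposited without normalization in a table per pair of groups. The deposited normalized values are a signal (each library's counts over its DESeq2 size factor), used here only as an alternative for levels. Duplicate removal can lower counts of abundant genes, and its effect was not tested. Columns were assigned to groups by name.

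Symbols came from GENCODE vM39, which matched 56323 of 56941 identifiers. Tests used edgeR 4.0.16 (quasi-likelihood, TMM, filterByExpr, BH adjustment over all genes tested) in R 4.3.3, with DESeq2 1.42.0 as an alternative, and the edgeR test was checked on simulated counts. The interaction needed only an adjusted p under 0.05, and the comparisons of genotypes no limit on biotype or count. Intervals are at 95%. Genes named were the 10 members, Mir210, M2 markers, up to 3 genes of each list with the smallest p among calls, and the 3 genes most like each member. Some items are not reported here. Members and lists were chosen with earlier results of these data known. The length and GC trend, the ratios, the canonical lengths, the block on the library number and the removal of 2 or 3 libraries together were added after the data were seen.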

Additional observations from a re-analysis of the deposited data

How the results depend on the processing

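Under DESeq2, other scalings, other filters, 1 fit over 12 libraries and no limit on the fold change, 9 members were called with IL-4 in each genotype, and with log2 changes required to pass 1 or -1, 2 were left in each, Tap1 and Nlrc5. The genotype count in M2 went from 0 to 1 (Nlrc5) with no filter on low counts. Leaving out 1 library at a time gave 0 to 1 in M0 between genotypes (1, Tap1, without library 2 of WT M0, and also without the second libraries of WT M0 and KO M0 together), 0 in M2 and in the interaction, 9 with IL-4 in WT and 8 to 9 in KO. Of the single log2 values, 772 of those recomputed kept their direction and side of the threshold, 17 lost the call, 14 of them by the limit of 1 and 3 in H2-T23 of KO, 4 gained it, and 47 changed sign, all of them in results that had not been called. With the length and GC trend removed, those that changed sign were H2-D1 (0.00010) and Tap2 (0.023) in KO M2 against WT M2, Tapbp (-0.10) in WT M2 against WT M0 and H2-D1 (0.059) in the interaction, and with no filter on low counts Psmb8 (-0.000824) in the interaction. With libraries left out, the log2 values that changed sign for KO M0 against WT M0 were those of H2-K1 (-0.22 to 0.016), H2-D1 (-0.12 to 0.076), B2m (-0.16 to 0.032), Psmb8 (-0.19 to 0.035). With libraries left out, the log2 values that changed sign for KO M2 against WT M2 were those of H2-K1 (-0.12 to 0.021), H2-D1 (-0.065 to 0.029), H2-T23 (-0.075 to 0.087), B2m (-0.12 to 0.0028), Tap2 (-0.059 to 0.039), Psmb8 (-0.15 to 0.023). With libraries left out, the log2 values that changed sign for WT M2 against WT M0 were those of Tapbp (-0.044 to 0.14). With libraries left out, the log2 values that changed sign for the interaction were those of H2-K1 (-0.094 to 0.14), H2-D1 (-0.12 to 0.083), B2m (-0.12 to 0.074), Tapbp (-0.045 to 0.17), Psmb8 (-0.11 to 0.12), Nlrc5 (-0.12 to 0.019). The cause was not tested. Canonical lengths moved the 40 levels per kb by more than 1 SD, and the deposited normalization moved none of 80. Nothing in the sources says that the numbers 1 to 3 of the libraries pair them between groups. Deviations from the group means correlated between libraries of the same number at -0.27 to 0.34 over the 12 pairs of the 4 comparisons, over 0.1 in 2, and 3 of 12 correlated best with their own number. With the library number as a replicate block, chosen after seeing the data, the members called were 0 in M0 between genotypes, 1 in M2 (Nlrc5, log2 -0.28, adjusted p = 0.0203 in edgeR), 9 with IL-4 in each genotype and 0 in the interaction. With this block 284 genes were called in M0 and 289 in M2 between genotypes, in place of 65 and 137. Under the other settings without libraries left out these counts over all genes ran from 27 to 532 in M0 and from 40 to 360 in M2, and with 1 library left out from 20 to 302 and from 53 to 215. The precision is limited by 3 libraries a group.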
